A study of Mus musculus with 16 samples.

Results

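The response of the liver to a 16 h fast in mice kept on a high-fat diet (HFD) was measured by comparing 4 HFD fast with 4 HFD fed RNA-sequencing libraries, which are 8 of the 16 libraries of the series. The libraries were grouped by their labels, as the 4 labelled as liver fasted for 16 h on HFD and the 4 labelled as liver fed ad libitum on HFD. All were whole livers of male mice of the C57BL/6J background (spelled C56B6/J in the labels) without a transgene or deletion, put on their diet as young adults and kept on it for 16 weeks. The other 8 libraries came from the same 2 nutritional states on a control diet (CD), 4 in each, and are used here to ask whether the fasting change differed between diets. They also enter the common estimate of the spread, and with the 8 HFD libraries fitted on their own 1014 genes were called in place of 1335. The labels do not say whether each library came from its own mouse, so the p-values measure the spread between these libraries. Total counts ran from 43709367 to 48039551 in the 8 HFD libraries, where a count of 3 was worth 0.0593 to 0.0686 CPM (counts as a share of the library total). All levels are given as TMM-scaled CPM, and changes as log2 fold changes of fast against fed ± SE.

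Fasting moves the liver from storing fuel to releasing it. Low insulin and high glucagon, glucocorticoid and circulating fatty acids are the main signals. The transcription factor SREBP1c, which insulin induces, and the glucose sensor ChREBP drive the enzymes of fatty acid synthesis in the fed state, while the fatty acid receptor PPARα drives those of fatty acid oxidation and ketone body production in the fasted state. Glucose output in fasting rests on PEPCK (Pck1) and glucose-6-phosphatase (G6pc), with carbon from amino acids and glycerol. A long period on HFD is known to cause obesity, a fatty liver and insulin resistance.

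The HFD livers carried the transcripts of hepatocytes, and the summed level of 16 hepatocyte markers was 143291 to 170696 CPM in the fed and 110831 to 143145 CPM in the fasted libraries. The albumin share of all counts was 8.82% to 11.9% in the fed and 5.47% to 8.35% in the fasted libraries, without overlap. Albumin is among the 16 markers, so its share is no separate measure from their sum. The 16 markers had a median log2 fold change of -0.11, with 14 not called and 2 called lower, beside 4.07% of all genes. The adipose markers summed to 86.0 to 194 CPM in the fed and 374 to 439 CPM in the fasted libraries, and 5 of the 10 were tested, all with a positive change. The list holds the lipid droplet genes Plin4 and Cidec, whose mean levels went from 79.8 to 187 CPM and from 35.1 to 148 CPM within a mean sum that went from 149 to 403 CPM. The pancreas markers summed to 10.9 to 19.2 and 6.30 to 9.22 CPM, with 10 of the 14 at or under 3 counts in every HFD library, and Cela1 was called lower (-1.05 ± 0.24, adjusted p = 0.0150, adjusted p = 0.0537 without HFD fed 1). Each of these 4 properties separated the groups completely (2-sided exact permutation test of 4 against 4 libraries, p = 0.0286, the smallest this design can give, adjusted p = 0.0914 over 16 properties). The T and NK cell markers (10.6 to 21.1 against 16.3 to 31.2 CPM) and the B cell markers (12.4 to 28.4 against 19.6 to 60.6 CPM) overlapped between the groups (exact permutation p = 0.114 and 0.143). HFD fed 4 stood apart from the other fed libraries by its Kupffer cell and macrophage markers (826 CPM against 551 to 581 CPM) and its stellate cell and matrix markers (540.2 CPM against 300.05 to 317 CPM). Among the fasted libraries, HFD fast 4 was likewise highest in stellate cell and matrix markers (552 CPM against 296 to 367 CPM). It was also highest in T and NK cell markers (31.2 CPM against 16.3 to 19.5 CPM). In bulk liver, fewer cells of a type and less RNA per cell cannot be told apart, and the part of cell composition in the changes given here was not tested.

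Fasting on HFD changed 1335 of 15075 genes tested (8.86%) at an adjusted p under 0.05 (edgeR quasi-likelihood test with Benjamini-Hochberg adjustment), and a gene that met this threshold is referred to as called. Of these, 721 (4.78%) were higher and 614 (4.07%) lower in the fasted livers. Scaling by total counts in place of TMM moved this split to 894 higher and 429 lower, with a median over all genes of 0.055 in place of 0.0079 on the log2 scale. The median size of a called change was 0.57 on the log2 scale, 306 called genes changed by at least 1 and 68 by at least 2. The 4 fasted and 4 fed libraries did not overlap for 1183 of the called genes, against 2514 of all genes tested (16.7%), 8.02% higher and 8.66% lower in the fasted livers. The number of calls depended on single libraries, falling to 505 without HFD fed 1, 707 without HFD fast 3, 732 without HFD fast 1, 802 without HFD fed 3 and 865 without HFD fed 2, and 445 genes were called in every fit that left out 1 library. Without HFD fed 4, the fed library that stood apart, 1500 genes were called.

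Of the 1335 genes, 1172 had a change of the same sign in CD livers and 724 were also called there, 712 of them in the same direction and 12 in the opposite one. In CD livers 3797 genes were called for fasting (25.2%), 13.7% higher and 11.5% lower, and the direct test of the difference between diets, the interaction of diet and fasting, called 390 genes (2.59%). Among the 1335 genes called on HFD, the interaction was called for 90: 57 had opposite signs in the diets, 29 a larger change of the same sign on CD and 4 a larger one on HFD. The 2 fasting contrasts share no library.

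**Figure D1:**
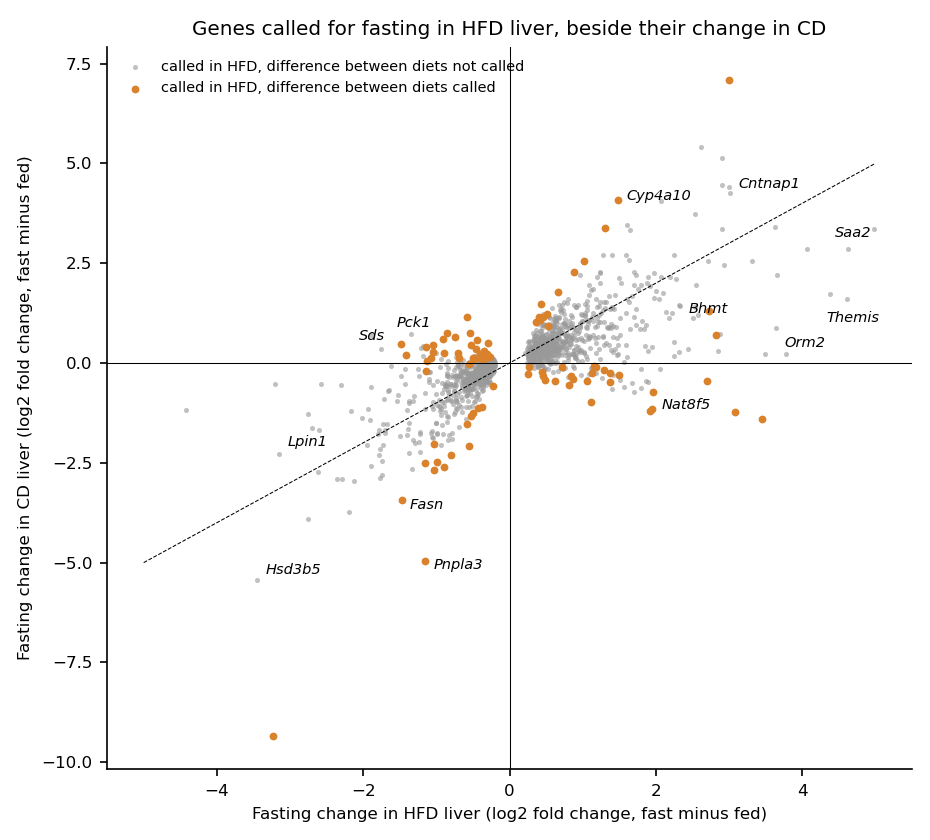
Each point is 1 of the 1335 genes called for fasting on HFD, with its log2 fold change (fast minus fed) on HFD on the horizontal and on CD on the vertical axis, and the dashed line marks equal change. Most points share their sign between the diets (1172 of 1335), and the 90 genes in orange, for which the difference between diets was called, lie away from the line.

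**Figure D2:**
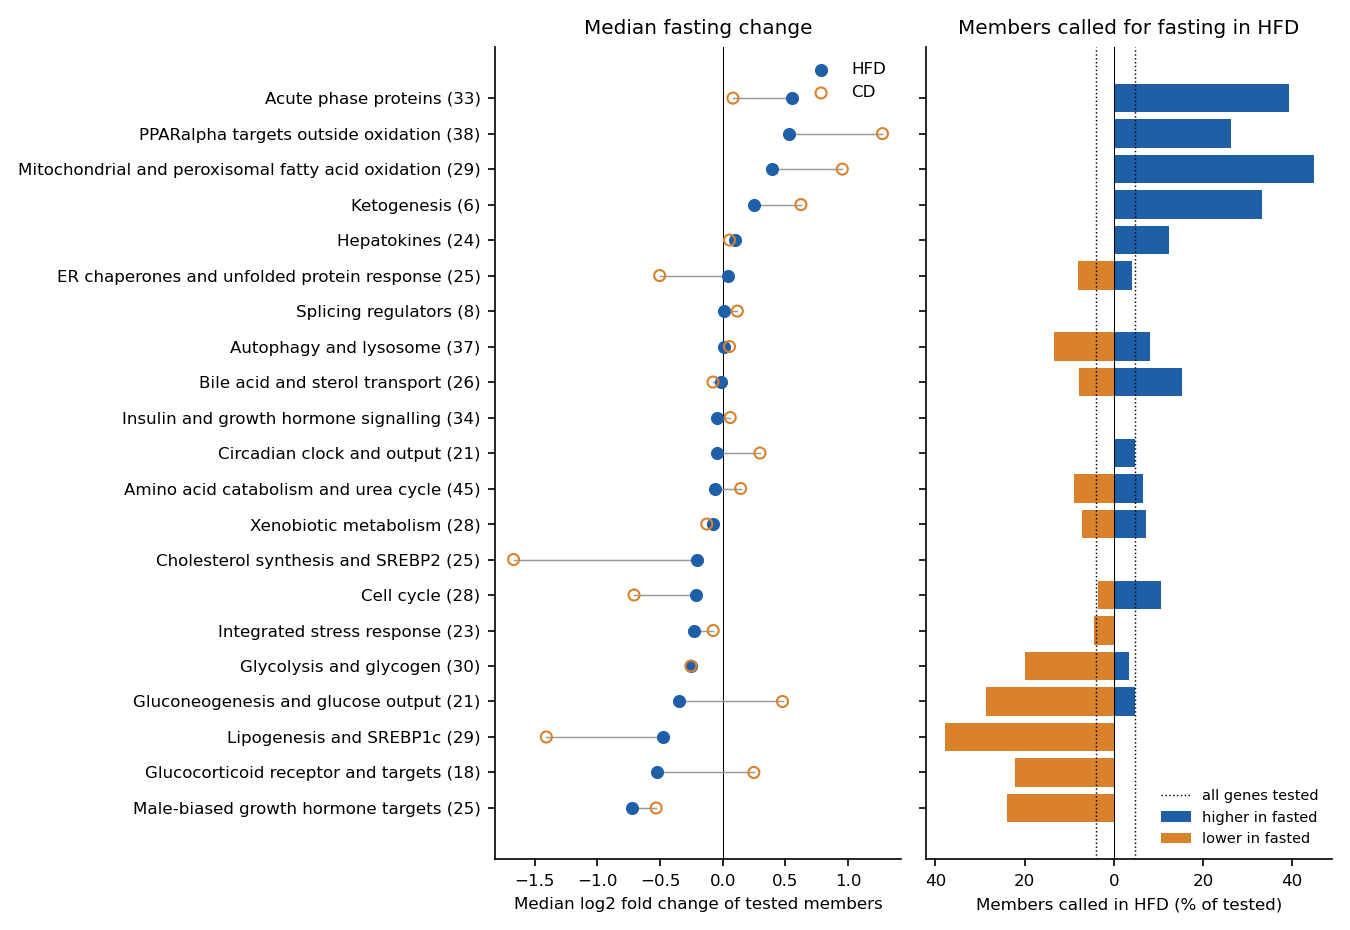
For each gene list other than the cell type markers and the lists chosen after values were seen, with the number of members tested in brackets, the left panel shows the median log2 fold change of fasting on HFD (filled) and CD (open), and the right panel the percentage of tested members called higher or lower on HFD, with dotted lines at the percentages for all genes tested (4.78% higher, 4.07% lower). Among the lists drawn, acute phase proteins, PPARα targets and fatty acid oxidation stand at the top with median changes of 0.55, 0.53 and 0.40, and lipogenesis, glucocorticoid targets and male-biased growth hormone targets at the bottom with -0.48, -0.53 and -0.73.

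The largest rises on fasting, among genes without overlap between the groups and with a mean of at least 100 counts, included 4 acute phase proteins (Saa2, Saa1, Orm2 and Lcn2). These are plasma proteins that hepatocytes release during inflammation. Of 33 tested members, 13 rose and 0 fell on HFD, with a median log2 fold change of 0.55 beside 0.0079 for all genes, and on CD 10 rose and 5 fell (median 0.082). Of all genes 4.78% were higher and 4.07% lower on HFD, and 13.7% and 11.5% on CD. The interaction was called for 2 members with the HFD change above the CD change and for 1 with it under. Of all genes 1.23% and 1.36% were called in these directions. The HFD median ran from 0.22, without HFD fed 2, to 0.72 under the alternatives. The number that rose on HFD ran from 6 to 18 when 1 library was left out. It was 6 without HFD fed 2, 8 without HFD fed 1, HFD fed 3 or HFD fast 3, and 18 without HFD fed 4. Promoter sequence, from RefSeq (GRCm38.p6), is shown for 5 of these genes whose window holds a motif of a factor known for acute phase induction, as the 250 bases before the annotated start in the direction of the gene. In Saa2 at chr7:46751583-46751832 (plus strand) and Saa1 at chr7:46742981-46743230 (minus strand) the capitals mark a C/EBP-type match TTGCNNAAT, in Orm2 at chr4:63362199-63362448 (plus strand) the palindrome TTGCGCAA and a TATA box (TATAAA), and in Apcs at chr1:172895055-172895304 (minus strand) and Itih4 at chr14:30886226-30886475 (plus strand) a STAT-type match TTCNNNGAA.
Saa2: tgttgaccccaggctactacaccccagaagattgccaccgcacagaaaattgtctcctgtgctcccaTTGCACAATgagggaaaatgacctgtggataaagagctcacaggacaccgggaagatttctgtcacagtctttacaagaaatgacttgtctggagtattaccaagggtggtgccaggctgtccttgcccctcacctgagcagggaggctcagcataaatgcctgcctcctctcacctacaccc
Saa1: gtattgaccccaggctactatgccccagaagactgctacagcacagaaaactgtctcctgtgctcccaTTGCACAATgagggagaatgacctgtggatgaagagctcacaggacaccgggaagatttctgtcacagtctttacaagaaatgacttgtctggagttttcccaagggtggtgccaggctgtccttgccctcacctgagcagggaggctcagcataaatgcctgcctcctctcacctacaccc
Orm2: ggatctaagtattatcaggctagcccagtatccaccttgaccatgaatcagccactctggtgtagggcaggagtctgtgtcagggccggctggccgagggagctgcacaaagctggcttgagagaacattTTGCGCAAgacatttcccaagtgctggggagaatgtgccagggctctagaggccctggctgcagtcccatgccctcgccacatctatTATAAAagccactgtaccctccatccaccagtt
Apcs: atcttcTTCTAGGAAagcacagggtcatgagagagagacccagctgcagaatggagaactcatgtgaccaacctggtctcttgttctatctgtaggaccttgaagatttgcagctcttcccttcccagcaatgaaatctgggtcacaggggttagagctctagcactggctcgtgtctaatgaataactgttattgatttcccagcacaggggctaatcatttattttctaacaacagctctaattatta
Itih4: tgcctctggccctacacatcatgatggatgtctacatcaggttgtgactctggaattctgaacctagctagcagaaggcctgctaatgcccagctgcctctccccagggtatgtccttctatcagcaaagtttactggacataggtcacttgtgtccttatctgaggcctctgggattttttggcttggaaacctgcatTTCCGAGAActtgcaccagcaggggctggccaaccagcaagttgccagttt
Both strands of the 250 bases before and 50 bases after the start were searched. TTGCNNAAT was in 7 of the 27 acute phase promoters found in RefSeq (25.9%) and in 2.42% of all 27025 mouse promoters. These 7 were Fga, Mt2, Saa1, Saa2, Saa3, Saa4 and Steap4, of which only Saa1 and Saa2 were called on HFD. TTCNNNGAA was in 8 of the 27 (29.6%) and in 8.47% of all promoters. These 8 were Apcs, Fga, Fgb, Hamp, Hamp2, Itih4, Socs3 and Steap4, of which only Apcs and Itih4 were called on HFD. The matches thus do not mark the members that rose. TTGCGCAA, at Orm2, was in 0.185% and TATAAA in 14.2% of all promoters. A match is a description of the letters and was not tested as a binding site.

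Saa2 encodes a serum amyloid A. It was 5.97, 2.67, 5.38 and 19.97 CPM in HFD fed 1 to 4 and 233, 57.3, 472 and 78.9 CPM in HFD fast 1 to 4, a log2 fold change of 4.62 ± 1.12 (adjusted p = 0.0204). All fasted libraries were above all fed libraries, and HFD fast 1 and 3 stood above HFD fast 2 and 4. Saa1 lies beside it on the same chromosome. It was 28.7, 11.7, 19.6 and 50.6 CPM in the fed and 632, 129, 938 and 156 CPM in the fasted livers (4.07 ± 1.001, adjusted p = 0.0217), with the same order of fasted libraries. The CD changes were 2.85 ± 1.04 for Saa2 (adjusted p = 0.0549) and 2.85 ± 0.95 for Saa1 (adjusted p = 0.0383). Neither interaction was called (adjusted p = 0.500 and 0.617). Saa1 lost its CD call without CD fast 1 or 2 or CD fed 1, 2 or 3 (adjusted p up to 0.280). Orm2, an orosomucoid (alpha-1-acid glycoprotein), was 5.19, 1.36, 3.43 and 7.21 CPM in the fed and 44.4, 18.9, 121 and 32.3 CPM in the fasted livers (3.65 ± 0.66, adjusted p = 0.00468), again highest in HFD fast 3 and without overlap. The CD change of Orm2 was 0.87 ± 0.62 (adjusted p = 0.326, interaction adjusted p = 0.100). Its relative Orm1 was 249.9, 99.99, 129 and 168 CPM in the fed and 541, 307, 449 and 289 CPM in the fasted livers (1.29 ± 0.26, adjusted p = 0.00875), and the change of Orm1 differed from that on CD by 1.47 ± 0.37 (interaction adjusted p = 0.0453). Orm1 lost its interaction call in 12 of 16 fits without 1 library (adjusted p up to 0.0956 without HFD fed 3). Of 100-base windows along the longest transcript, 9.81% of Saa2 were also in Saa1 and 6.95% of Orm2 were also in Orm1, so reads from those stretches could have been split or dropped in counting.

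Lcn2 encodes the iron-scavenging lipocalin 2. It was 3.81, 1.82, 8.49 and 14.9 CPM in the fed and 33.1, 44.5, 77.9 and 60.9 CPM in the fasted livers (2.90 ± 0.71, adjusted p = 0.0211). Its CD change was 3.35 ± 0.76 (adjusted p = 0.00494), and the interaction was not called (adjusted p = 0.828). Haptoglobin (Hp), which binds free haemoglobin, was 2672, 2356, 2856 and 2776 CPM in the fed and 4839.7, 3877, 6096 and 3279 CPM in the fasted livers (0.76 ± 0.17, adjusted p = 0.0145). The complement component C4b was 1226, 1055, 989 and 1097 CPM in the fed and 1888, 1758, 1914 and 1602 CPM in the fasted livers (0.71 ± 0.12, adjusted p = 0.00222). None of the 3 overlapped between the fed and fasted groups. For C4b the CD change was -0.11 ± 0.11 (adjusted p = 0.502) and the difference between diets 0.83 ± 0.16 (interaction adjusted p = 0.0177). Serpina3n, a serine protease inhibitor, rose by 0.91 ± 0.16 (adjusted p = 0.00421) and Lrg1, leucine-rich alpha-2-glycoprotein, by 1.25 ± 0.23 (adjusted p = 0.00451). The pentraxin Apcs (serum amyloid P) was 33.9, 29.3, 29.8 and 35.9 CPM in the fed and 50.5, 48.5, 109 and 45.6 CPM in the fasted livers (0.98 ± 0.24, adjusted p = 0.0217), with HFD fast 3 far above the other fasted livers. Itih4 and Itih3, inter-alpha-trypsin inhibitor heavy chains, rose by 0.74 ± 0.18 (adjusted p = 0.0220) and 0.78 ± 0.19 (adjusted p = 0.0222), the latter with overlapping groups. Orm3 was at most 0.868 CPM in the fed and 2.20 to 7.07 CPM in the fasted livers (2.87 ± 0.71, adjusted p = 0.0227). Hp, Serpina3n and Lrg1 were also called higher on CD (adjusted p = 0.000902, 0.00217 and 0.00108). Itih3 was called higher on CD too (adjusted p = 0.0489, up to 0.142 when 1 library was left out). Apcs, Orm1 and Orm3 were not called on CD (adjusted p = 0.363, 0.652 and 0.479). Saa2 lost its call without HFD fast 3 or HFD fed 1, 2 or 3 (adjusted p up to 0.0706), and Saa1 without HFD fast 3 or HFD fed 1, 2 or 3 (adjusted p up to 0.0692). Lcn2 lost its call without HFD fast 3 or HFD fed 1 or 2 (adjusted p up to 0.0735), and Apcs without HFD fed 1, 2 or 3 (adjusted p up to 0.0590). Itih4 lost its call without HFD fast 1 or 3 or HFD fed 2 or 3 (adjusted p up to 0.0723), and Itih3 in 5 of 16 fits without 1 library (adjusted p up to 0.0695 without HFD fast 3). Orm3 lost its call without HFD fast 2 or HFD fed 2 (adjusted p up to 0.0579). Beside these rises, the Kupffer cell and macrophage markers were 551 to 826 CPM in the fed and 455 to 733 CPM in the fasted livers. Of 21 tested, 0 were called by edgeR, beside 8.86% of all genes, and 4 had an unadjusted p under 0.05, beside 3864 of 15075. DESeq2 called 1 lower, and 7 were called higher without HFD fed 4. The part of these cells in the acute phase changes was not tested.

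Among the other large rises without overlap between fed and fasted libraries, Bhmt, betaine-homocysteine methyltransferase, was the most abundant. It lies at chr13:93616675-93637961 (GRCm38, GENCODE M21, minus strand, protein coding) and was 915, 872, 1075 and 974 CPM in HFD fed 1 to 4 and 4681, 5375, 3118 and 6092 CPM in HFD fast 1 to 4 (2.33 ± 0.23, adjusted p = 9.13e-05). Cfap54 encodes a cilia and flagella associated protein. It was 0.657, 0.569, 0.686 and 0.830 CPM in the fed and 4.43, 4.99, 4.51 and 4.30 CPM in the fasted livers and had the smallest p of all genes on HFD (2.73 ± 0.20, adjusted p = 9.31e-06), with a rise larger than on CD by 1.42 ± 0.28 (interaction adjusted p = 0.0173). Cyp2a22 encodes a cytochrome P450. It was 3.79, 3.61, 13.0 and 12.4 CPM in the fed and 33.5, 85.8, 40.3 and 54.7 CPM in the fasted livers (2.71 ± 0.47, adjusted p = 0.00336). All 3 were called in each of the 16 fits that left out 1 library. Themis is known for its role in T cell development. It was 0.360, 0.109, 0.663 and 0.612 CPM in the fed and 6.68, 13.8, 10.5 and 11.9 CPM in the fasted livers (4.61 ± 0.59, adjusted p = 0.000469). The T and NK cell markers had 0 of 21 called (0 with DESeq2), beside 8.86% of all genes. An unadjusted p under 0.05 was found for 4 of them, beside 3864 of 15075 genes. The summed level of that list overlapped between the groups. The change was positive in 18 of these 21 (median 0.45) and in 10 of 10 B cell markers (median 0.77), beside a median of 0.0079 over all genes, and the part of these cells in the rise of Themis was not tested. Lamb3 encodes the laminin beta 3 chain. It was 6.16, 6.79, 13.8 and 6.36 CPM in the fed and 104, 38.8, 90.5 and 30.7 CPM in the fasted livers (2.997 ± 0.46, adjusted p = 0.00159). Cgref1, an EF-hand protein, and the long non-coding RNA Gm11752 rose by 2.54 ± 0.54 (adjusted p = 0.0107) and 2.28 ± 0.31 (adjusted p = 0.000683). Cntnap1 encodes contactin associated protein 1. It was 1.27, 2.47, 2.68 and 10.1 CPM in the fed and 41.5, 10.4, 40.4 and 42.0 CPM in the fasted livers (3.02 ± 0.70, adjusted p = 0.0168), with HFD fed 4 and HFD fast 2 nearly equal. Cntnap1 lost its call without HFD fed 1 or 3 (adjusted p up to 0.0585). The CD rises were 4.41 ± 0.49 for Lamb3, 4.27 ± 0.74 for Cntnap1 and 3.74 ± 0.57 for Cgref1. They were 2.57 ± 0.48 for Cyp2a22, 2.10 ± 0.31 for Gm11752, 1.61 ± 0.52 for Themis and 1.41 ± 0.23 for Bhmt. All were called on CD (adjusted p at most 0.0338), and none had a called interaction (adjusted p at least 0.0501). Themis lost its CD call without CD fast 1 or CD fed 1, 2 or 4 (adjusted p up to 0.158). Bhmt, Themis and Cntnap1 overlap exons of a gene on the opposite strand, and the strand setting of the counting is not given in the sources used here, so reads of these partners could not be told apart. The same holds for other genes given here, among them Wnk4, Rgs16, Adcy6, Gtf2ird2, Pex11g, Nrbp2, Tmtc2, Alkbh2 and Tmem243. Capn3, Fam198a and Pnpla3 overlap exons of a gene on their own strand.

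Among genes without overlap and with a mean of at least 100 counts, the largest fall was that of Lpin1, lipin 1, the phosphatidate phosphatase of triglyceride synthesis and a coregulator of PPARα. Lpin1 lies at chr12:16535669-16610966 (GRCm38, GENCODE M21) and was 924, 661, 766 and 838 CPM in HFD fed 1 to 4 and 66.6, 108, 94.9 and 90.5 CPM in HFD fast 1 to 4 (-3.15 ± 0.51, adjusted p = 0.00223). The 4 fasted libraries lay close together and far under every fed library. On CD it fell by 2.28 ± 0.49 on the log2 scale (adjusted p = 0.00365), and the interaction adjusted p was 0.489. Rgs16 encodes a regulator of G protein signalling. It was 123, 210.3, 155 and 90.2 CPM in the fed and 28.3, 28.01, 40.4 and 35.3 CPM in the fasted livers (-2.13 ± 0.45, adjusted p = 0.0107). Wnk4 encodes a kinase known for the control of ion transport. It was 13.0, 16.9, 9.22 and 6.66 CPM in the fed and 3.36, 1.70, 1.51 and 2.67 CPM in the fasted livers (-2.31 ± 0.36, adjusted p = 0.00190). Capn3, a calpain, and Rrm2, a subunit of ribonucleotide reductase, had low levels and small spread, Capn3 at 3.90, 4.09, 3.45 and 2.81 CPM in the fed and 1.06, 0.748, 0.943 and 0.969 CPM in the fasted livers (-1.93 ± 0.18, adjusted p = 4.38e-05) and Rrm2 at 10.2, 9.06, 10.6 and 9.62 CPM in the fed and 2.76, 2.95, 2.85 and 3.53 CPM in the fasted livers (-1.71 ± 0.16, adjusted p = 4.38e-05). These 5 genes, chosen from those without overlap between the groups, were all called whichever 1 library was left out. Pfkfb3 makes the activator of phosphofructokinase. It was 47.9, 76.0, 72.9 and 28.4 CPM in the fed and 16.9, 17.3, 22.5 and 12.6 CPM in the fasted livers (-1.70 ± 0.34, adjusted p = 0.00875). Fam198a and the unannotated Gm42503 fell by 1.74 and 1.91 on the log2 scale (adjusted p = 0.000931 and 0.000701). Scara5, a scavenger receptor that takes up ferritin, fell by 1.78 (adjusted p = 0.0219) and the imprinted gene Peg10 by 1.73 (adjusted p = 0.0268). Scara5 lost its call without HFD fast 1 or 3 or HFD fed 1 (adjusted p up to 0.0707), and Peg10 in 5 of 16 fits without 1 library (adjusted p up to 0.0713 without HFD fed 1).

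The genes with the smallest p-values also included some with smaller changes and little spread between libraries. Slc25a44 encodes a mitochondrial carrier of branched-chain amino acids. It was 98.7, 97.1, 101 and 99.2 CPM in the fed and 56.9, 58.0, 52.9 and 50.9 CPM in the fasted livers (-0.86 ± 0.08, adjusted p = 4.38e-05). Kyat1 encodes kynurenine aminotransferase 1. It was 212, 183, 193 and 165 CPM in the fed and 95.0, 87.9, 105 and 86.0 CPM in the fasted livers (-1.01 ± 0.094, adjusted p = 4.38e-05). The fed and fasted ranges of both were far apart relative to their spread. Adcy6, an adenylyl cyclase, which makes the cAMP that glucagon signals through, rose by 0.83 ± 0.093 (adjusted p = 0.000277), and the non-coding Gm16157, which overlaps Fam169b on the opposite strand, by 1.32 ± 0.15 (adjusted p = 0.000302). Gtf2ird2, a member of the TFII-I family, fell by 1.14 ± 0.12 on the log2 scale (adjusted p = 0.000145) on HFD and had a change of -0.20 ± 0.12 on CD (adjusted p = 0.245), and the difference was called (-0.95 ± 0.17, adjusted p = 0.0132).

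Transcripts of many enzymes and regulators of fatty acid synthesis were lower in the fasted HFD livers. Of 29 members of the lipogenesis and SREBP1c list, 0 rose and 11 fell on HFD (median log2 fold change -0.48), against 1 that rose and 22 that fell on CD (median -1.41), beside 4.07% and 11.5% of all genes lower on HFD and CD. The interaction was called for 8 members, each with the HFD change above the CD change, the direction in which 1.23% of all genes were called. Between 7 and 11 members fell on HFD when 1 library was left out, the fewest without HFD fed 1.

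Fasn encodes fatty acid synthase. It was 370.1, 441, 336 and 401 CPM in HFD fed 1 to 4 and 161, 122, 164 and 111 CPM in HFD fast 1 to 4 (-1.47 ± 0.19, adjusted p = 0.000444). The groups did not overlap. On CD the levels were 874, 1527, 1244 and 874 CPM fed and 111, 86.1, 119.8 and 98.6 CPM fasted (-3.44 ± 0.20, adjusted p = 1.20e-07), so the fed levels of the diets did not overlap and the fasted levels did. The difference in change was 1.97 ± 0.26 (interaction adjusted p = 0.00287). Acaca encodes acetyl-CoA carboxylase 1, which supplies malonyl-CoA. It was 146, 135, 137 and 161 CPM in the fed and 71.7, 64.0, 66.0 and 81.3 CPM in the fasted livers (-1.03 ± 0.12, adjusted p = 0.000302), against -2.02 ± 0.12 on CD (interaction adjusted p = 0.0114). Acly encodes ATP citrate lyase, the source of cytosolic acetyl-CoA. It was 229, 192, 213 and 190.1 CPM in the fed and 111, 99.1, 112 and 94.4 CPM in the fasted livers (-0.98 ± 0.19, adjusted p = 0.00667), against -2.47 ± 0.20 on CD (interaction adjusted p = 0.0132). The fed and fasted libraries of both enzymes were apart on HFD. Srebf1 encodes SREBP1. It was 291, 217, 212 and 218 CPM in the fed and 96.5, 145, 105 and 102 CPM in the fasted livers (-1.06 ± 0.20, adjusted p = 0.00624), highest in HFD fed 1. Malic enzyme (Me1), a source of NADPH, fell by 1.07 ± 0.21 (adjusted p = 0.00718), and Mid1ip1, which activates acetyl-CoA carboxylase, by 1.23 ± 0.27 on the log2 scale (adjusted p = 0.0119).

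Smaller or less regular falls were those of the citrate carrier Slc25a1 (-0.46 ± 0.12, adjusted p = 0.0244), of Mlxipl, which encodes ChREBP (-0.48 ± 0.14, adjusted p = 0.0424), of the elongase Elovl6 (-0.84 ± 0.25, adjusted p = 0.0475) and of Pnpla3, a lipid droplet protein (-1.15 ± 0.30, adjusted p = 0.0278). Slc25a1 lost its call without HFD fed 1, 2 or 3 (adjusted p up to 0.0647), and Mlxipl in 7 of 16 fits without 1 library (adjusted p up to 0.142 without HFD fed 1) and with scaling by total counts and without a filter on low counts. Elovl6 lost its call in 12 of 16 fits without 1 library (adjusted p up to 0.119 without HFD fast 3) and with scaling by total counts and with upper quartile scaling, and Pnpla3 in 6 of 16 fits without 1 library (adjusted p up to 0.0750 without HFD fast 3) and with limma-voom. Slc25a1, Mlxipl and Pnpla3 also lost it with only the groups compared. Pnpla3 was at 0.932, 0.591, 0.869 and 1.28 CPM in the fed and 0.369, 0.612, 0.377 and 0.303 CPM in the fasted livers, while on CD it was 14.2, 13.6, 13.9 and 6.61 CPM fed and 0.424, 0.333, 0.374 and 0.413 CPM fasted. The difference between diets was called (3.80 ± 0.42, adjusted p = 0.00116). Thrsp (Spot 14), induced by feeding, did not pass the test on HFD at 215, 149, 212 and 139.8 CPM in the fed and 49.0, 201, 45.0 and 33.7 CPM in the fasted livers (-1.12 ± 0.55, adjusted p = 0.215), with HFD fast 2 at the level of the fed livers, and its difference from CD was called (4.59 ± 0.81, adjusted p = 0.0132). Without HFD fast 2, Thrsp was called lower (adjusted p = 0.0168).

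Transcripts of cholesterol synthesis showed no called change on HFD. Of 25 tested members of the cholesterol synthesis and SREBP2 list, 0 were called by edgeR, by DESeq2 or by limma-voom, beside 8.86% of all genes by edgeR. An unadjusted p under 0.05 was found for 4 (median of the list -0.21), beside 3864 of all 15075 genes. On CD 20 fell (median -1.67), beside 11.5% of all genes. The median on HFD ran from -0.49 to 0.026 over the alternatives, and up to 5 members were called lower when 1 library was left out. For 9 members the interaction was called, each with the HFD change above the CD change, beside 1.23% of all genes in that direction. Insig1 holds SREBP in the endoplasmic reticulum and is itself an SREBP target. It was 145, 157, 123 and 129 CPM in the fed and 78.7, 86.1, 135 and 73.8 CPM in the fasted livers (-0.57 ± 0.22, adjusted p = 0.123), against -2.08 ± 0.23 on CD (interaction adjusted p = 0.0241). HFD fast 3 lay within the fed range. Insig1 lost its interaction call without CD fed 2 or HFD fed 3 (adjusted p up to 0.0549).

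Transcripts of many enzymes of fatty acid oxidation were higher in the fasted HFD livers. Of 29 members, 13 rose and 0 fell on HFD by edgeR (median 0.40, 1 lower with DESeq2), and 25 rose on CD (median 0.95), beside 4.78% and 13.7% of all genes higher. For 7 members the interaction was called, each with the HFD change under the CD change, beside 1.36% of all genes in that direction. The count on HFD was 4 without HFD fast 1 and 4 without HFD fed 1, 8 without HFD fast 3 or HFD fed 4, 17 without HFD fast 4 and 6 with only the groups compared.

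Cpt1a encodes carnitine palmitoyltransferase 1, which commits fatty acids to mitochondrial oxidation. It was 606, 645, 754 and 756 CPM in HFD fed 1 to 4 and 1322, 913, 1159 and 1144 CPM in HFD fast 1 to 4 (0.72 ± 0.17, adjusted p = 0.0185). The groups did not overlap, and HFD fast 2 was the lowest fasted liver. Acaa1a, the peroxisomal thiolase, rose by 0.65 ± 0.12 (adjusted p = 0.00420). Etfdh, which passes electrons from acyl-CoA dehydrogenases to ubiquinone, rose by 0.46 ± 0.10 (adjusted p = 0.0119). Hadhb encodes the thiolase subunit of the mitochondrial trifunctional protein. It was 269, 341, 336 and 301 CPM in the fed and 488, 370.4, 444 and 416 CPM in the fasted livers (0.46 ± 0.099, adjusted p = 0.0114), and rose more on CD (difference -0.70 ± 0.14, interaction adjusted p = 0.0205). Ehhadh, the peroxisomal bifunctional enzyme, did not pass the test at 527, 880.3, 1237 and 674 CPM in the fed and 2465, 809, 1618 and 1370.4 CPM in the fasted livers (0.92 ± 0.30, adjusted p = 0.0699), with HFD fast 2 among the fed livers and a call without that library (adjusted p = 0.0245). It rose by 3.15 ± 0.32 on CD and the difference was called (interaction adjusted p = 0.0165). Cpt1a lost its call without HFD fast 1 or HFD fed 1 or 2 (adjusted p up to 0.0679). Hadhb lost its interaction call without CD fed 2 (adjusted p = 0.0509).

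Ketogenesis had 6 tested members, of which 2 rose on HFD and 5 on CD (medians 0.25 and 0.62), beside 4.78% and 13.7% of all genes. The HFD count ran from 1 to 3 when 1 library was left out and was 0 with only the groups compared. Bdh1 interconverts acetoacetate and beta-hydroxybutyrate. It was 291, 337, 346 and 317 CPM in the fed and 520.1, 393, 459.9 and 386 CPM in the fasted livers (0.45 ± 0.092, adjusted p = 0.00936) and was called whichever library was left out, but not with only the groups compared.

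PPARα targets outside oxidation also rose, in 10 of 38 tested members on HFD with 0 lower (median 0.53), and in 26 on CD (median 1.28), beside 4.78% and 13.7% of all genes. The count on HFD was 2 without HFD fast 1 or without HFD fed 1, 4 without HFD fast 3, 5 without HFD fed 2, 13 without HFD fast 4 and 4 with only the groups compared. Cyp4a10 encodes a fatty acid omega-hydroxylase. It was 454, 849, 1374 and 779 CPM in HFD fed 1 to 4 and 3381, 2330.2, 2331 and 1590.4 CPM in HFD fast 1 to 4 (1.48 ± 0.30, adjusted p = 0.00824). The groups did not overlap, and HFD fed 3 was nearest to the fasted livers. The CD levels were 207, 351, 358 and 302 CPM fed and 4689, 6835, 4707 and 4487 CPM fasted, and the difference of the changes was -2.61 ± 0.42 (interaction adjusted p = 0.00838).

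Cyp4a14, of the same family, was 2064, 2788, 5298 and 2425 CPM in the fed and 7818, 3552, 5336 and 3174 CPM in the fasted livers (0.66 ± 0.35, adjusted p = 0.254). It did not pass the test on HFD and overlapped, with HFD fed 3 at the level of HFD fast 3, while on CD it was 452, 546, 398 and 179.7 CPM fed and 9651, 12183, 9865 and 9954 CPM fasted (interaction -4.06 ± 0.51, adjusted p = 0.00287). Aldh3a2, fatty aldehyde dehydrogenase, rose without overlap at 824, 858, 1113 and 782 CPM in the fed and 1760.2, 1363, 1843 and 1248 CPM in the fasted livers (0.80 ± 0.16, adjusted p = 0.00761). The fatty acid transport proteins Slc27a1 and Slc27a2 rose by 1.60 ± 0.40 (adjusted p = 0.0218) and 0.41 ± 0.098 (adjusted p = 0.0179), the thioesterase Acot2 by 1.31 ± 0.32 (adjusted p = 0.0218) and retinol saturase (Retsat) by 1.02 ± 0.26 (adjusted p = 0.0253). The interaction was called for Slc27a2, Acot2 and Retsat (adjusted p = 0.0244, 0.0287 and 0.0387), each with the larger rise on CD. Of the lipid droplet proteins, Plin2 was 533, 510.1, 784 and 539.8 CPM in the fed and 1304, 764, 1424 and 800.04 CPM in the fasted livers (0.86 ± 0.21, adjusted p = 0.0200) and Cidec 18.5, 8.41, 50.2 and 63.3 CPM in the fed and 169, 97.7, 174 and 150.3 CPM in the fasted livers (2.07 ± 0.58, adjusted p = 0.0382). Plin4, another droplet protein, which is also in the adipose marker list, was 74.9, 41.7, 108 and 94.0 CPM in the fed and 166, 206, 208 and 169.7 CPM in the fasted livers (1.23 ± 0.20, adjusted p = 0.00263), without overlap. Monoglyceride lipase (Mgll) and the fatty acid binding protein Fabp2 rose by 0.58 ± 0.16 (adjusted p = 0.0372) and 0.46 ± 0.14 (adjusted p = 0.0483). Adipsin (Cfd), of the same marker list, was 3.49, 1.55, 1.30 and 0.257 CPM in the fed and 3.58, 70.1, 14.9 and 2.06 CPM in the fasted livers (3.78 ± 0.97, adjusted p = 0.0258), with HFD fast 2 far above the rest. Plin4, Cidec and Cfd are the 3 of 5 tested adipose markers that were called higher, so this list is no separate measure beside them. Of all genes 4.78% were called higher, and the count of 3 ran from 1 to 3 when 1 library was left out. The other tested markers, Fabp4 and Lipe, had log2 fold changes of 0.66 (adjusted p = 0.337) and 0.41 (adjusted p = 0.205), and the part of adipose tissue was not tested. Slc27a1 lost its call without HFD fast 1 or HFD fed 1 (adjusted p up to 0.0774), and Slc27a2 without HFD fast 1 or HFD fed 1 (adjusted p up to 0.0591). Acot2 lost its call without HFD fast 1 or 3 or HFD fed 1 or 2 (adjusted p up to 0.0723), and Retsat without HFD fast 1 or 3 or HFD fed 1 or 4 (adjusted p up to 0.0871). Plin2 lost its call without HFD fast 1 or 3 or HFD fed 1 or 2 (adjusted p up to 0.0686), and Cidec in 6 of 16 fits without 1 library (adjusted p up to 0.116 without HFD fed 1). Mgll lost its call in 6 of 16 fits without 1 library (adjusted p up to 0.115 without HFD fed 1), and Fabp2 in 12 of 16 fits without 1 library (adjusted p up to 0.127 without HFD fed 2) and with DESeq2 size factors and without a filter on low counts. Cfd lost its call without HFD fast 2 or HFD fed 2 or 3 (adjusted p up to 0.101) and with limma-voom. Slc27a2 lost its interaction call without CD fed 2 (adjusted p = 0.0567), and Acot2 without CD fed 2 or 4 or HFD fast 4 or HFD fed 3 (adjusted p up to 0.0539). Retsat lost its interaction call in 10 of 16 fits without 1 library (adjusted p up to 0.0806 without HFD fed 3). Of 100-base windows, 12.7% of Cyp4a10 and 17.1% of Acot2 were also in close relatives, and 0% of Cyp4a14.

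**Figure D3:**
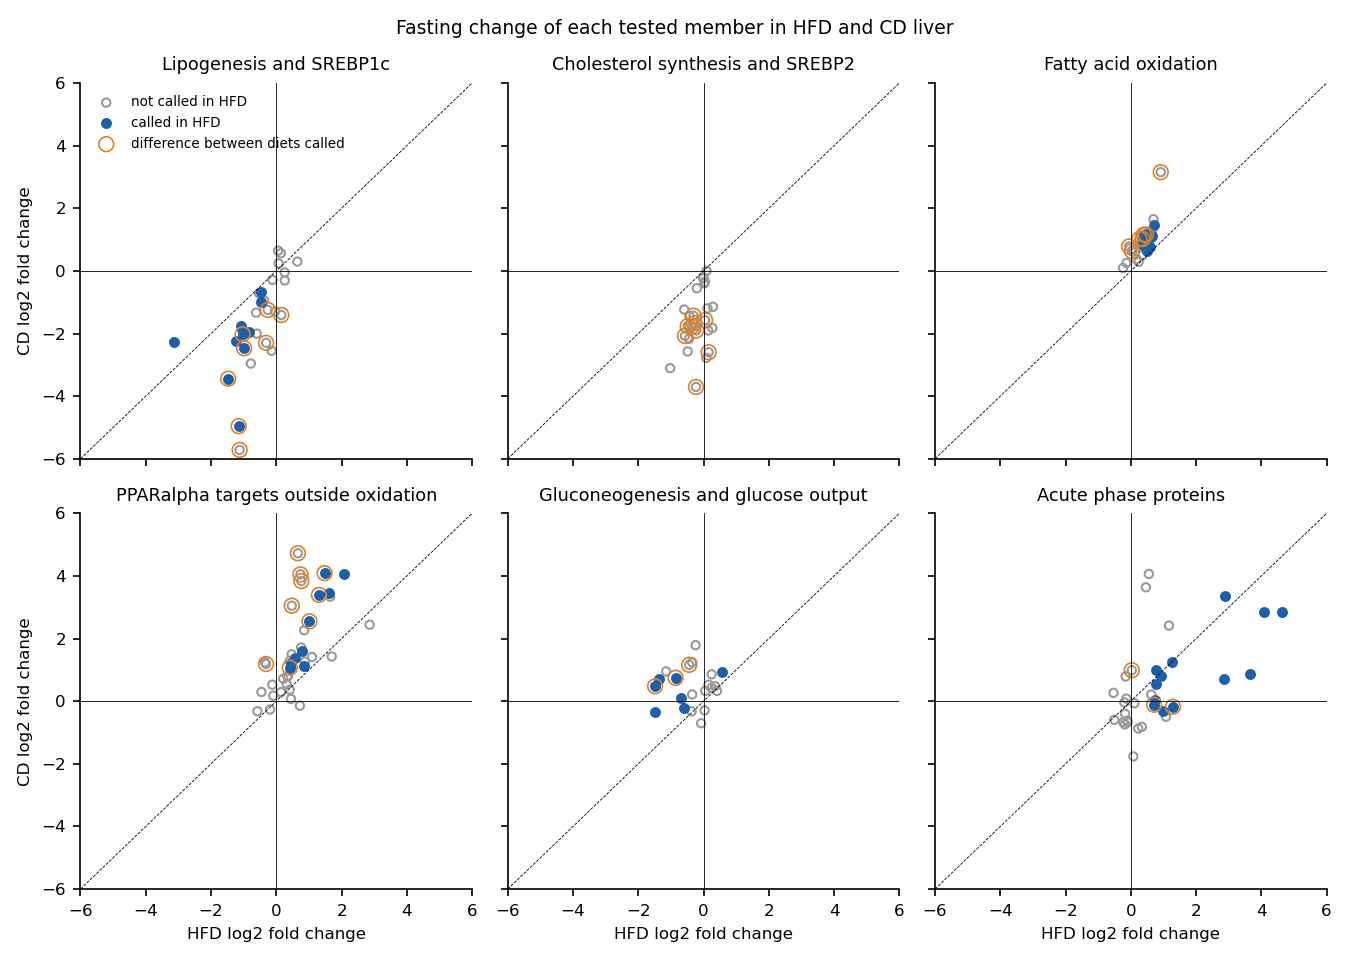
Each panel plots every tested member of 1 gene list by its fasting log2 fold change on HFD (horizontal) and CD (vertical), filled where called on HFD and ringed where the difference between diets was called. By their medians, lipogenesis and cholesterol synthesis fall below the line of equal change (-0.48 and -0.21 on HFD against -1.41 and -1.67 on CD), and oxidation and PPARα targets lie above it. Single members can lie on the other side, such as Lpin1 of the lipogenesis list (-3.15 on HFD, -2.28 on CD). Several members of gluconeogenesis lie at the upper left, lower in HFD and higher in CD livers.

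Several genes of glucose output were lower after the fast on HFD. Of 21 tested members of the gluconeogenesis and glucose output list, 1 rose and 6 fell (median -0.35), while on CD 9 rose and 1 fell (median 0.48). The shares of all genes were 4.78% higher and 4.07% lower on HFD and 13.7% and 11.5% on CD. The fall on HFD rested on single libraries, with 1 member lower without HFD fast 3, 2 without HFD fed 1, 2 or 3, 3 without HFD fast 4 and 4 without HFD fast 1 or 2. The median ran from -0.39, without HFD fast 4, to -0.099, without HFD fed 4. The interaction was called for Pck1, Sds and Sdsl, each with the HFD change under the CD change, beside 1.36% of all genes in that direction.

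G6pc encodes the catalytic subunit of glucose-6-phosphatase. It was 331, 509, 495 and 502 CPM in HFD fed 1 to 4 and 224, 175, 166 and 91.0 CPM in HFD fast 1 to 4 (-1.49 ± 0.38, adjusted p = 0.0259). All fasted libraries were under all fed ones, with HFD fed 1 the lowest fed liver. On CD the change of G6pc was -0.34 ± 0.37 (adjusted p = 0.544), and the interaction adjusted p was 0.238, so a difference between diets was not called. Pck1 encodes PEPCK. It was 3339.8, 3183, 4659 and 3518 CPM in the fed and 2459, 1848, 1503 and 2300.3 CPM in the fasted livers (-0.86 ± 0.25, adjusted p = 0.0467), without overlap, while on CD it was 2704, 3692, 2388 and 4747 CPM fed and 3369, 7106, 5316 and 6915 CPM fasted (0.75 ± 0.25, adjusted p = 0.0416). The difference of -1.60 ± 0.36 between diets was called (interaction adjusted p = 0.0296). Slc37a4 encodes the glucose-6-phosphate transporter that works with G6pc. It was 223, 249.2, 231 and 252 CPM in the fed and 186, 161, 125 and 158 CPM in the fasted livers (-0.60 ± 0.15, adjusted p = 0.0237). Sds encodes serine dehydratase, which turns serine into pyruvate. It was 335, 224, 367 and 553 CPM in the fed and 135, 104, 67.4 and 222 CPM in the fasted livers (-1.48 ± 0.34, adjusted p = 0.0158), against 0.48 ± 0.33 on CD (interaction adjusted p = 0.0407). The fed and fasted livers did not overlap for either. The transcription factor Klf15 and tyrosine aminotransferase (Tat), both known glucocorticoid targets, were 208, 217, 253 and 169 CPM in the fed and 152, 142, 118 and 117 CPM in the fasted livers for Klf15 (-0.68 ± 0.16, adjusted p = 0.0200) and 1078, 1261, 2909 and 1444 CPM in the fed and 932, 641, 433 and 614 CPM in the fasted livers for Tat (-1.35 ± 0.39, adjusted p = 0.0437). Neither overlapped between the groups. Pyruvate carboxylase (Pcx) was the member that rose, at 673, 609.6, 774 and 647 CPM in the fed and 1094, 1044, 982 and 918 CPM in the fasted livers (0.58 ± 0.14, adjusted p = 0.0190). Ppargc1a encodes a coactivator of gluconeogenic and oxidative genes. It was 14.8, 10.5, 15.2 and 12.7 CPM in the fed and 10.001, 13.1, 7.38 and 11.3 CPM in the fasted livers (-0.35 ± 0.39, adjusted p = 0.614). G6pc lost its call without HFD fast 3 or 4 or HFD fed 2 or 3 (adjusted p up to 0.0652), and Pck1 in 10 of 16 fits without 1 library (adjusted p up to 0.131 without HFD fast 3) and with scaling by total counts, with upper quartile scaling and without a filter on low counts. Slc37a4 lost its call without HFD fast 3 or HFD fed 1 or 2 (adjusted p up to 0.0748), and Klf15 without HFD fast 3 or HFD fed 1 or 3 (adjusted p up to 0.0625). Tat lost its call in 10 of 16 fits without 1 library (adjusted p up to 0.150 without HFD fed 3), and Pcx without HFD fast 1 or HFD fed 1 or 2 (adjusted p up to 0.0585). Pck1 lost its CD call in 7 of 16 fits without 1 library (adjusted p up to 0.119 without CD fast 2) and with scaling by total counts and without a filter on low counts. Pck1 lost its interaction call in 7 of 16 fits without 1 library (adjusted p up to 0.0666 without HFD fed 3), and Sds in 13 of 16 fits without 1 library (adjusted p up to 0.0751 without HFD fed 3) and with scaling by total counts.

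Glucocorticoid receptor targets fell in 4 of 18 tested members on HFD and rose in 0 (median -0.53), against 5 higher and 3 lower on CD (median 0.25), beside 4.07% of all genes lower on HFD and 13.7% higher and 11.5% lower on CD. By edgeR the interaction was called for 0 members. An unadjusted interaction p under 0.05 was found for 10, beside 3045 of all 15075 genes. Between 1 and 4 fell when 1 library was left out, with 1 without HFD fast 3 or HFD fed 1 or 3, and 2 rose without HFD fed 4. The 4 were Fkbp5, Tat, Lpin1 and Klf15, of which Lpin1, Tat and Klf15 stand in other lists too. Fkbp5 encodes a chaperone that is a sensitive readout of glucocorticoid action. It was 211, 173, 301 and 205 CPM in the fed and 67.6, 149.9, 92.0 and 84.4 CPM in the fasted livers (-1.18 ± 0.33, adjusted p = 0.0378), highest in HFD fed 3. Its CD change was 0.43 ± 0.33 (adjusted p = 0.356). The interaction of Fkbp5 was not called by edgeR (adjusted p = 0.0747), and was called with DESeq2 and with a replicate block. Fkbp5 lost its call in 5 of 16 fits without 1 library (adjusted p up to 0.106 without HFD fed 3) and with limma-voom.

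Glycolysis and glycogen had 6 lower and 1 higher of 30 tested members on HFD (median -0.25) and 13 lower and 4 higher on CD (median -0.25), beside 4.07% lower and 4.78% higher of all genes on HFD and 11.5% and 13.7% on CD. The 1 higher was lost without HFD fast 1 or 3 or HFD fed 1 or 2, and between 4 and 9 were lower when 1 library was left out. Pygl encodes liver glycogen phosphorylase. It was 522, 477, 491 and 409 CPM in the fed and 205, 284, 229.7 and 228 CPM in the fasted livers (-1.01 ± 0.13, adjusted p = 0.000505). Pdhb and Dlat, subunits of the pyruvate dehydrogenase complex, were 124, 130.1, 129.97 and 116 CPM in the fed and 83.4, 74.2, 75.2 and 76.6 CPM in the fasted livers for Pdhb (-0.69 ± 0.086, adjusted p = 0.000419) and 49.3, 48.4, 48.0 and 48.6 CPM in the fed and 35.3, 39.2, 34.1 and 33.3 CPM in the fasted livers for Dlat (-0.45 ± 0.089, adjusted p = 0.00705). The fed and fasted values of all 3 were apart, and their calls held whichever library was left out. Pklr encodes liver pyruvate kinase, a ChREBP target. It was 261, 277, 187 and 193 CPM in the fed and 91.7, 123, 134 and 98.6 CPM in the fasted livers (-1.03 ± 0.28, adjusted p = 0.0307), and fell more on CD (interaction 1.65 ± 0.39, adjusted p = 0.0369). Khk, ketohexokinase, fell by 0.67 ± 0.20 on the log2 scale (adjusted p = 0.0449). Ldha, lactate dehydrogenase A, rose at 1024, 991, 1128 and 1103 CPM in the fed and 1945, 1097, 1817 and 1701 CPM in the fasted livers (0.63 ± 0.16, adjusted p = 0.0253), with HFD fast 2 within the fed range. Pklr lost its call without HFD fast 1 or 4 or HFD fed 1 or 2 (adjusted p up to 0.0871), and Khk in 10 of 16 fits without 1 library (adjusted p up to 0.127 without HFD fed 1) and without a filter on low counts. Ldha lost its call without HFD fast 1 or 3 or HFD fed 1 or 2 (adjusted p up to 0.0766). Pklr lost its interaction call in 12 of 16 fits without 1 library (adjusted p up to 0.0819 without CD fed 2).

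In amino acid catabolism and the urea cycle 3 were higher and 4 lower of 45 tested members on HFD (median -0.063), beside 4.78% higher and 4.07% lower of all genes, with 12 higher and 3 lower on CD, beside 13.7% and 11.5%. The number lower was 2 without HFD fast 3 or HFD fed 1 or 3 and 8 with DESeq2. Oat encodes ornithine aminotransferase. It was 533, 466.4, 557 and 349.6 CPM in HFD fed 1 to 4 and 2001, 1759, 1327 and 1018 CPM in HFD fast 1 to 4 (1.68 ± 0.22, adjusted p = 0.000500). Every fasted library was above every fed library, and the CD change was of the same size (1.67 ± 0.22). In the methionine cycle, Bhmt rose, Mat1a, the liver methionine adenosyltransferase, rose at 3545, 3375, 4774 and 5104 CPM in the fed and 7714, 6344, 5653 and 6889 CPM in the fasted livers (0.66 ± 0.19, adjusted p = 0.0415), and Cbs, cystathionine beta-synthase, fell at 623, 584, 605 and 645 CPM in the fed and 400.2, 348, 373 and 428 CPM in the fasted livers (-0.67 ± 0.11, adjusted p = 0.00209). The rise of Mat1a was smaller than on CD (1.79 ± 0.20, interaction adjusted p = 0.0391). Kynu, kynureninase of tryptophan breakdown, fell by 0.42 ± 0.11 on the log2 scale (adjusted p = 0.0293), and Sds and Tat also count here. Mat1a lost its call in 10 of 16 fits without 1 library (adjusted p up to 0.128 without HFD fed 1) and without a filter on low counts, and Kynu without HFD fast 2 or 3 or HFD fed 1 or 3 (adjusted p up to 0.105) and with scaling by total counts. Mat1a lost its interaction call in 11 of 16 fits without 1 library (adjusted p up to 0.0831 without HFD fast 3).

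**Figure D4:**
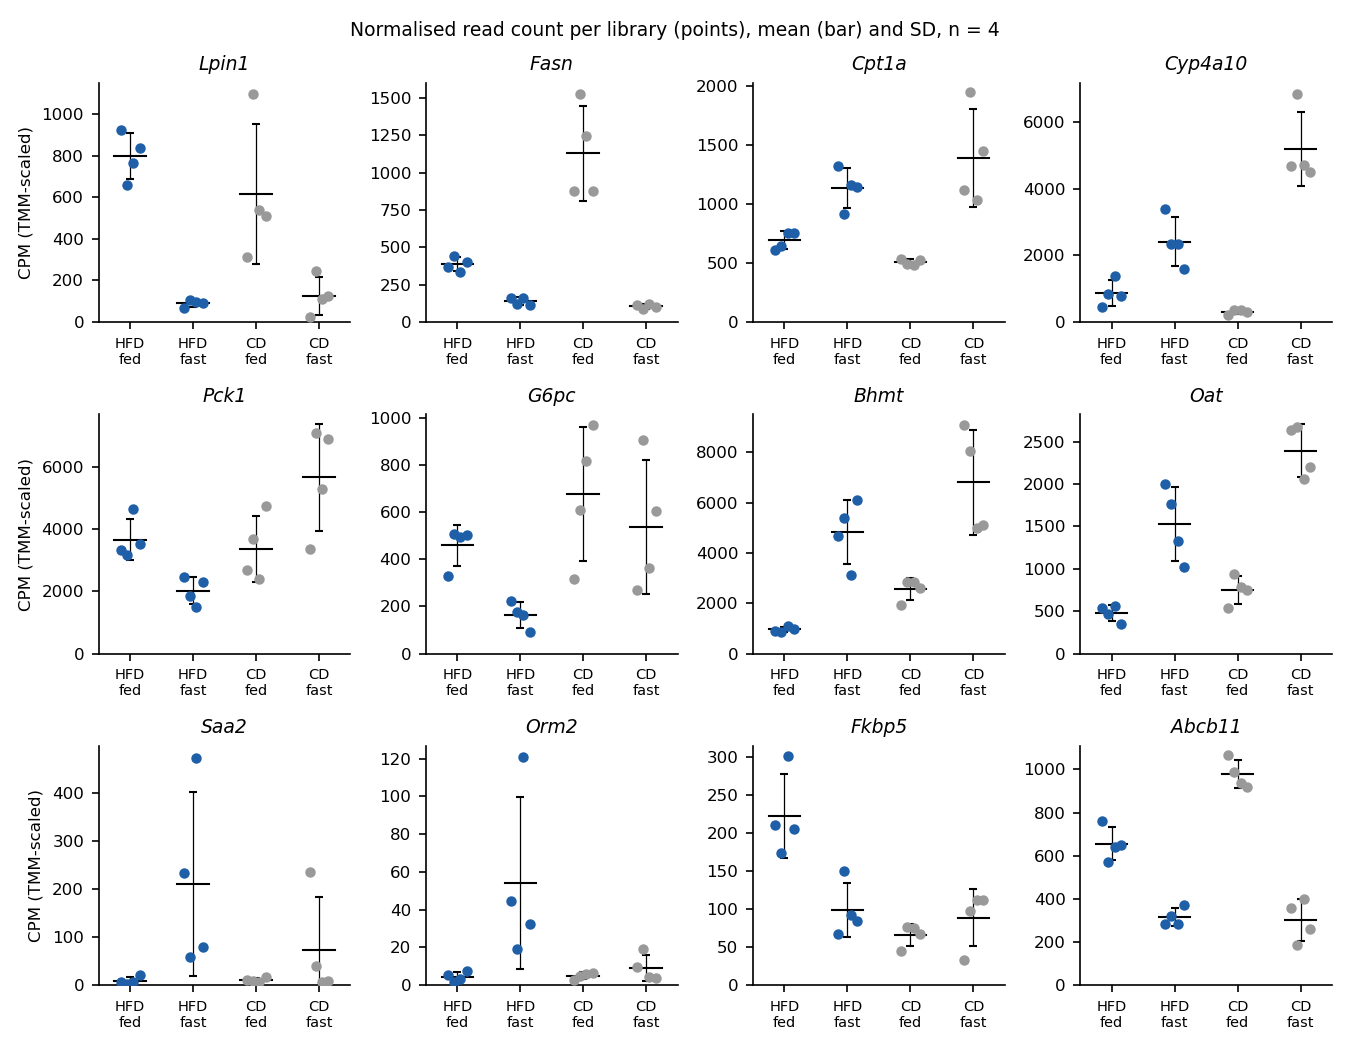
TMM-scaled CPM of 12 genes in each library (points), with the mean (bar) and SD (n = 4), HFD libraries in blue and CD libraries in grey. Lpin1, Fasn, G6pc, Pck1, Fkbp5 and Abcb11 were lower in all HFD fast than in all HFD fed libraries, and Cpt1a, Cyp4a10, Bhmt, Oat, Saa2 and Orm2 higher.

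Of 26 tested bile acid and transport genes, 4 were higher and 2 lower (median -0.0099), beside 4.78% and 4.07% of all genes. The number higher was 1 without HFD fed 1 or 2, and the number lower 5 without HFD fed 4. Abcb11 encodes the bile salt export pump. It was 759.9, 572, 640.02 and 649.9 CPM in HFD fed 1 to 4 and 285, 320.2, 284 and 373 CPM in HFD fast 1 to 4 (-1.05 ± 0.18, adjusted p = 0.00357). The fasted livers lay close together under every fed liver, and on CD it changed by -1.70 ± 0.19 (adjusted p = 2.52e-05). Cyp8b1 encodes the sterol 12-alpha-hydroxylase that sets the cholic acid share. It was 189.97, 284, 264 and 179 CPM in the fed and 744, 427, 623 and 353 CPM in the fasted livers (1.23 ± 0.26, adjusted p = 0.00997), also without overlap. Slco1a1 encodes a male-biased organic anion transporter. It was 481, 529, 375 and 218 CPM in the fed and 146, 139, 175 and 41.0 CPM in the fasted livers (-1.68 ± 0.35, adjusted p = 0.0104), lowest in HFD fast 4, while its relative Slco1a4 rose (1.87 ± 0.46, adjusted p = 0.0218). The efflux pump Abcc3 and Slc51b, a subunit of the basolateral bile acid transporter, rose by 0.61 ± 0.18 (adjusted p = 0.0460) and 1.67 ± 0.43 (adjusted p = 0.0253), Slc51b at under 1 CPM. Slco1a4 lost its call in 5 of 16 fits without 1 library (adjusted p up to 0.0741 without HFD fed 1), and Abcc3 in 11 of 16 fits without 1 library (adjusted p up to 0.125 without HFD fast 2) and without a filter on low counts. Slc51b lost its call without HFD fast 1 or 4 or HFD fed 1 or 2 (adjusted p up to 0.0804).

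Of 28 tested genes of xenobiotic metabolism, 2 rose and 2 fell, beside 4.78% and 4.07% of all genes, and 0 rose without any 1 of CD fast 4, CD fed 3 or 4, HFD fast 1 or 2 or HFD fed 1, 2 or 4. Gstp1 encodes a glutathione S-transferase. It was 761, 884, 613 and 445 CPM in the fed and 331, 162, 246 and 200.2 CPM in the fasted livers (-1.52 ± 0.21, adjusted p = 0.000690), and the pseudogene Gstp-ps fell by 1.72 ± 0.34 on the log2 scale (adjusted p = 0.00796). Since 52.8% of the 100-base windows of Gstp1 and 51.1% of those of Gstp-ps were in the other or in Gstp2, the split of reads between them is uncertain. Gstm1, another glutathione S-transferase, was 858, 1107, 1106 and 1042 CPM in the fed and 460.5, 707, 468 and 646 CPM in the fasted livers (-0.85 ± 0.16, adjusted p = 0.00628). Fed and fasted libraries did not overlap for Gstp1 or Gstm1. Nr1i3, the nuclear receptor CAR, and Cyp3a25 rose with overlapping groups, by 1.12 ± 0.34 (adjusted p = 0.0498) and 0.89 ± 0.26 (adjusted p = 0.0417). Nr1i3 lost its call in 14 of 16 fits without 1 library (adjusted p up to 0.138 without HFD fast 2) and with limma-voom, with DESeq2 size factors and without a filter on low counts, and Cyp3a25 in 8 of 16 fits without 1 library (adjusted p up to 0.121 without HFD fast 2).

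Male-biased genes that growth hormone pulses maintain fell in 6 of 25 tested members and rose in 0 by edgeR (median -0.73, 1 higher with DESeq2), and in 8 on CD (median -0.53), beside 4.07% and 11.5% of all genes lower, with 3 to 9 lower when 1 library was left out. The HFD median ran from -1.36, without HFD fast 3, to -0.46, without HFD fed 2. C6 encodes complement component 6. It was 348, 375, 277 and 291 CPM in the fed and 119.6, 88.0, 163 and 127 CPM in the fasted livers (-1.38 ± 0.18, adjusted p = 0.000469), and Ugt2b38, a glucuronosyltransferase, was 29.1, 32.5, 27.9 and 19.4 CPM in the fed and 18.8, 16.4, 14.2 and 12.6 CPM in the fasted livers (-0.81 ± 0.17, adjusted p = 0.00936), both without overlap. Hsd3b5 encodes a male-specific steroid dehydrogenase. It was 88.4, 189, 19.3 and 6.76 CPM in the fed and 4.08, 8.63, 14.4 and 0.707 CPM in the fasted livers (-3.45 ± 0.88, adjusted p = 0.0259), where HFD fed 3 and 4 lay within or near the fasted range. Selenbp2 was 121, 349, 36.5 and 225 CPM in the fed and 6.96, 20.6, 25.3 and 55.2 CPM in the fasted livers (-2.76 ± 0.75, adjusted p = 0.0329) and Elovl3, a fatty acid elongase, 302, 259.9, 373 and 139.6 CPM in the fed and 138, 118, 152 and 52.5 CPM in the fasted livers (-1.22 ± 0.36, adjusted p = 0.0468), both overlapping. Hsd3b5 lost its call without HFD fast 1 or HFD fed 1 or 2 (adjusted p up to 0.0865) and with limma-voom, and Selenbp2 in 5 of 16 fits without 1 library (adjusted p up to 0.0902 without HFD fed 2). Elovl3 lost its call in 11 of 16 fits without 1 library (adjusted p up to 0.131 without HFD fed 3). Of the 34 genes of insulin and growth hormone signalling, 0 were called by edgeR or limma-voom and 1 was lower with DESeq2, where edgeR called 8.86% of all genes. An unadjusted p under 0.05 was found for 4 of the 34, beside 3864 of all 15075 genes. On CD 5 rose and 6 fell, beside 13.7% and 11.5% of all genes.

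In the autophagy and lysosome list, 3 of 37 rose and 5 fell, beside 4.78% and 4.07% of all genes. The number that fell was 2 without HFD fast 3 or HFD fed 1, and the number that rose 6 without HFD fed 4. Ulk1 encodes the kinase that starts autophagy. It was 186, 181, 144 and 177 CPM in the fed and 115, 76.8, 87.4 and 93.8 CPM in the fasted livers (-0.89 ± 0.16, adjusted p = 0.00435). Atg7 activates LC3 for conjugation. It was 34.7, 34.1, 36.7 and 30.5 CPM in the fed and 47.5, 58.3, 53.0 and 45.5 CPM in the fasted livers (0.59 ± 0.10, adjusted p = 0.00371). The lysosomal acid lipase Lipa was 181, 155, 183 and 197 CPM in the fed and 289, 234, 275 and 256 CPM in the fasted livers (0.56 ± 0.12, adjusted p = 0.0105). The groups were apart for all 3 genes. Cathepsin A (Ctsa) rose by 0.55 ± 0.10 (adjusted p = 0.00453) and Wipi1, a phosphoinositide-binding protein of the autophagosome, fell by 0.63 ± 0.13 on the log2 scale (adjusted p = 0.01003). Among 25 genes of ER chaperones and the unfolded protein response, 1 rose and 2 fell, beside 4.78% and 4.07% of all genes. The number that fell ran from 1 to 4 when 1 library was left out. P4hb, protein disulfide isomerase, rose (0.44 ± 0.094, adjusted p = 0.0107). Sec61b, a subunit of the translocon, fell at 42.7, 41.5, 38.9 and 37.2 CPM in the fed and 17.6, 26.2, 25.3 and 25.7 CPM in the fasted livers (-0.76 ± 0.11, adjusted p = 0.00124). Ern1, which encodes the sensor IRE1α, fell less than on CD (-0.58 ± 0.16, adjusted p = 0.0376 on HFD, -1.52 ± 0.16 on CD, interaction adjusted p = 0.0407), with HFD fed 3 at the fasted level. Ern1 lost its call in 6 of 16 fits without 1 library (adjusted p up to 0.114 without HFD fed 1) and with scaling by total counts. Ern1 lost its interaction call in 11 of 16 fits without 1 library (adjusted p up to 0.0834 without CD fed 2). On CD 12 genes of that list fell, beside 11.5% of all genes. Of 23 genes of the integrated stress response 1 fell, near the 4.07% of all genes, and 0 rose on HFD by edgeR (0 lower with limma-voom, 1 higher with DESeq2 or with scaling by total counts). When 1 library was left out, 0 to 2 of these 23 fell and 0 to 1 rose.

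Of 24 hepatokines, secreted signals of the liver, 3 rose, beside 4.78% of all genes. Inhbe encodes the inhibin beta E chain of activin E. It was 63.9, 74.5, 94.0 and 50.3 CPM in the fed and 229.9, 115, 252 and 164 CPM in the fasted livers (1.43 ± 0.31, adjusted p = 0.0118), without overlap, and its relative Inhbc rose with overlap (0.58 ± 0.17, adjusted p = 0.0499). Fgf21, the fasting hormone induced by PPARα, did not pass the test at 4.13, 3.61, 7.14 and 10.9 CPM in the fed and 27.4, 3.99, 31.2 and 21.4 CPM in the fasted livers (1.70 ± 0.59, adjusted p = 0.0832), with HFD fast 2 at the fed level and a call without it (adjusted p = 0.0269). The clock list had 1 called higher of 21, a share near the 4.78% of all genes. It was Per2, a period gene, at 24.1, 28.8, 31.8 and 20.9 CPM in the fed and 56.9, 69.2, 52.4 and 43.0 CPM in the fasted livers (1.07 ± 0.30, adjusted p = 0.0371), without overlap. In the cell cycle list 3 of 28 rose, the replication helicase subunits Mcm2, Mcm3 and Mcm4, and 1 fell, Rrm2, while on CD 13 fell, beside 11.5% of all genes. The number that rose was 0 with limma-voom and 0 without any 1 of CD fast 4, CD fed 2, 3 or 4, HFD fast 1, 3 or 4 or the 4 HFD fed libraries, and 5 without HFD fast 2 and with DESeq2, beside 4.78% of all genes. The number that fell was 5 without HFD fast 4 and 2 without HFD fed 2 or 4. Mcm2 was 3.47, 3.22, 3.41 and 3.99 CPM in the fed and 7.51, 4.17, 6.65 and 15.7 CPM in the fasted livers (1.27 ± 0.37, adjusted p = 0.0416), highest in HFD fast 4. Inhbc lost its call in 14 of 16 fits without 1 library (adjusted p up to 0.157 without HFD fast 3) and with limma-voom, with DESeq2 size factors and without a filter on low counts, and Per2 in 7 of 16 fits without 1 library (adjusted p up to 0.103 without HFD fed 1). Mcm2 lost its call in 11 of 16 fits without 1 library (adjusted p up to 0.133 without HFD fast 4) and with limma-voom. Of a list of 8 splicing regulators, 0 were called by edgeR or limma-voom and 1, U2af2, was called higher with DESeq2. U2af2 was 52.4, 60.9, 52.9 and 57.1 CPM in the fed and 66.0, 62.8, 65.1 and 63.7 CPM in the fasted livers (0.21 ± 0.068, adjusted p = 0.0734), Rbfox2 35.1, 35.5, 31.4 and 35.1 CPM in the fed and 39.3, 36.2, 42.1 and 37.2 CPM in the fasted livers (0.17 ± 0.07, adjusted p = 0.131) and Taf15 50.1, 49.9, 47.5 and 46.4 CPM in the fed and 43.9, 44.2, 42.6 and 42.6 CPM in the fasted livers (-0.16 ± 0.066, adjusted p = 0.133), each with an unadjusted p under 0.05. The groups did not overlap for these 3, as for 16.7% of all genes, and 3864 of 15075 genes had an unadjusted p under 0.05. On CD Rbfox2 rose by 0.35 ± 0.07 (adjusted p = 0.00240) and Taf15 fell by 0.20 ± 0.066 on the log2 scale (adjusted p = 0.0356). Taf15 lost its CD call without CD fast 1 or 4 or CD fed 1, 2 or 4 (adjusted p up to 0.105) and without a filter on low counts. By edgeR the interaction was called for 0 of the 8 regulators, with 0 at an unadjusted p under 0.05. Hnf4a encodes the nuclear receptor that maintains hepatocyte identity. It was 1153, 948, 944 and 897 CPM in the fed and 666, 705, 721 and 602 CPM in the fasted livers (-0.55 ± 0.10, adjusted p = 0.00601). Hnf4a and Tat were the 2 of 16 hepatocyte markers that fell, beside 4.07% of all genes. The number that fell ran from 1 to 3 when 1 library was left out and was 4 with DESeq2.

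The genes whose fasting change differed most by p between HFD and CD held further lipid genes and others with no place in the lists. Positive differences, where the HFD change lay above that on CD, were led by Pnpla3, 1810008I18Rik, Fasn and Nat8. Nat8 encodes an N-acetyltransferase. It was 5.29, 5.603, 5.72 and 4.09 CPM in the fed and 17.5, 16.5, 12.1 and 12.2 CPM in the fasted livers (1.49 ± 0.17, adjusted p = 0.000302) and rose without overlap on HFD, with a CD change of -0.29 ± 0.16 (adjusted p = 0.209) (interaction 1.78 ± 0.24, adjusted p = 0.00287). Pex11g, a peroxisomal membrane protein, rose on HFD (0.44 ± 0.067, adjusted p = 0.00162) and fell on CD (-0.23 ± 0.067, adjusted p = 0.0220), with an interaction adjusted p of 0.00379. The lincRNA 1810008I18Rik fell on both diets, by 0.55 on HFD and 2.08 on CD (interaction adjusted p = 0.00183). Mr1, the molecule that presents vitamin B metabolites to T cells, and Pgd, of the pentose phosphate pathway, were not called on HFD (0.45 ± 0.17 and -0.26 ± 0.097) and fell on CD by 1.28 and 1.24 (interaction adjusted p = 0.00287 and 0.00329).

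The negative differences included that of Cyp4a14. Tmtc2, Dcaf6 and Alkbh2 fell on HFD (-0.58 ± 0.16, -0.29 ± 0.077 and -0.54 ± 0.13, with adjusted p = 0.0366, 0.0310 and 0.0208) and rose on CD (1.15 ± 0.16, 0.49 ± 0.077 and 0.76 ± 0.13). Tmtc2 encodes a membrane protein of the endoplasmic reticulum. It was 18.2, 20.5, 18.8 and 19.8 CPM in the fed and 16.1, 10.3, 11.6 and 13.6 CPM in the fasted livers, and Alkbh2, a DNA repair demethylase, 5.72, 6.06, 5.65 and 7.49 CPM in the fed and 4.36, 3.74, 3.84 and 5.19 CPM in the fasted livers. Fed and fasted HFD libraries did not overlap for either. Hsd17b11, a lipid droplet dehydrogenase, rose on both, by 0.43 ± 0.11 on HFD and 1.48 ± 0.11 on CD (interaction adjusted p = 0.00381). Nrbp2, a pseudokinase, and Tmem243, a membrane protein, were not called on HFD (-0.21 ± 0.083 and -0.20 ± 0.09) and rose on CD (0.69 ± 0.084 and 0.69 ± 0.091, interaction adjusted p = 0.00287 and 0.00379). 1810008I18Rik lost its call without HFD fed 1 (adjusted p = 0.0585), and Tmtc2 in 7 of 16 fits without 1 library (adjusted p up to 0.0997 without HFD fast 3) and with scaling by total counts. Dcaf6 lost its call in 6 of 16 fits without 1 library (adjusted p up to 0.0880 without HFD fed 1) and with scaling by total counts and without a filter on low counts, and Alkbh2 without HFD fast 3 (adjusted p = 0.0662) and with scaling by total counts. Hsd17b11 lost its call without HFD fast 1 or HFD fed 1 (adjusted p up to 0.0775). Pex11g lost its CD call without CD fast 4 or CD fed 2 or 3 (adjusted p up to 0.0683). The number of genes with a called interaction ran from 147, without CD fed 2, to 461, without HFD fast 1, and was 1020 with DESeq2. It was 233 without CD fast 2, 246 without CD fed 1, 162 without HFD fast 3, 239 without HFD fast 4, 241 without HFD fed 1 or 2 and 168 without HFD fed 3. Scaling by total counts moved the split of the interaction from 185 positive and 205 negative to 306 and 134.

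**Figure D5:**
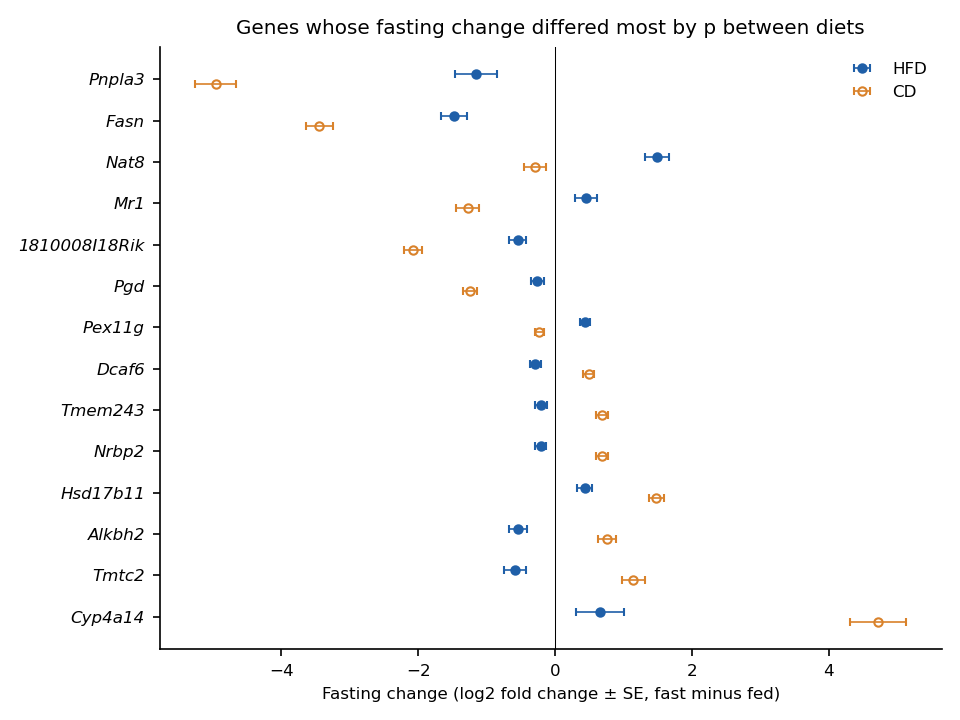
Fasting log2 fold change ± SE on HFD (filled) and CD (open) of the 14 genes shown, chosen for the smallest interaction p of each sign. Pnpla3 and Fasn fell less on HFD than on CD, Cyp4a14 and Hsd17b11 had a smaller change, and Nat8 and Pex11g had a positive change on HFD beside a negative one on CD.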

How the data were processed

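Polyadenylated RNA of mouse liver was sequenced as paired reads in 16 libraries (4 HFD fast, 4 HFD fed, 4 CD fast and 4 CD fed). The authors deposited raw read counts per gene, made with CASAVA 1.8.4, TopHat2 2.0.11 and featureCounts on mm10 (GRCm38), per the submitters' processing notes. Whether pairs or strand were counted is not given in the sources used here. The table held 46078 genes, of which 935 had no matching symbol, and all of its sample columns were used.

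Counts were filtered by edgeR 4.0.16 (filterByExpr by group, 15075 genes kept), scaled by TMM and modelled as 4 groups in a single quasi-likelihood fit of the 16 libraries (12 residual degrees of freedom, R 4.3.3, Benjamini-Hochberg adjustment over all genes tested). SE is the size of the log2 fold change divided by the square root of F. Summed markers and other library properties were compared by exact permutation tests, adjusted over 16 properties. The members and gene lists were chosen with earlier results of these data known. Named genes are the 12 largest rises and falls at an adjusted p under 0.05 with a mean of at least 100 counts over the 8 HFD libraries and no overlap between fed and fasted, the 6 smallest p in each direction, the 8 smallest interaction p of each sign (14 are named), and list members of known role. Some genes that the rule picks are not reported here. Groups chosen after their values were seen are named as such.

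Alternatives were DESeq2 1.42.0, limma-voom (limma 3.58.1), other scalings and filters, stricter thresholds, only the groups compared, a replicate block and leaving out each library. The scripts were tested on simulated counts. No library pair of a group agreed within sampling noise (chi-square per gene of 35.0 or more). Positions are from GENCODE M21 and promoters (27025) from RefSeq (GRCm38.p6), searched on both strands for the C/EBP, STAT and TATA letters given with the sequences (the C/EBP forms overlap where a T follows the palindrome) and for CRE, forkhead, SRE, E-box, DR1, NF-kB, glucocorticoid and D-box elements, whose matches are not used here.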

Additional observations from a re-analysis of the deposited data

Results flagged for a closer look

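In 20 of 316 groups of 4 HFD libraries looked at (6.33%), 1 library lay far from the other 3 relative to the range of the group (Dixon's test at the 95% level), a gap that chance gives in about 1 in 20 groups. Among fed livers, HFD fed 4 was apart in Cntnap1 (10.1 CPM beside 1.27 to 2.68 CPM), Peg10 (2.35 CPM beside 3.94 to 4.03 CPM), Serpina3n (472 CPM beside 352 to 371 CPM) and Gbp2 (5.97 CPM beside 3.39 to 3.73 CPM), and in the summed Kupffer cell and macrophage markers (826 CPM beside 551 to 581 CPM) and stellate cell and matrix markers (540.2 CPM beside 300.05 to 317 CPM). HFD fed 1 was apart in the metabolic genes Srebf1 (291 CPM beside 212 to 218 CPM) and G6pc (331 CPM beside 495 to 509 CPM). HFD fed 3 was apart in Lamb3 (13.8 CPM beside 6.16 to 6.79 CPM), Plin2 (784 CPM beside 510.1 to 539.8 CPM), Ern1 (58.1 CPM beside 92.9 to 96.7 CPM) and Rbfox2 (31.4 CPM beside 35.1 to 35.5 CPM).

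Among fasted livers, HFD fast 2 was apart in Thrsp (201 CPM beside 33.7 to 49.0 CPM), Cntnap1 (10.4 CPM beside 40.4 to 42.0 CPM) and Orm3 (7.07 CPM beside 2.20 to 2.95 CPM), with Thrsp in the range of the fed livers. HFD fast 3 was apart in Apcs (109 CPM beside 45.6 to 50.5 CPM) and in the summed erythrocyte markers (505 CPM beside 299 to 326 CPM). HFD fast 1 was apart in Sec61b (17.6 CPM beside 25.3 to 26.2 CPM), Tmem243 (49.6 CPM beside 39.2 to 39.98 CPM) and the summed cholangiocyte markers (22.2 CPM beside 37.7 to 40.3 CPM).

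The fasting change differed between HFD and CD, by the interaction of diet and fasting (edgeR, adjusted p under 0.05), for the 37 genes listed next, and for Sdsl, which is only named above. The log2 difference, HFD minus CD, was positive for Thrsp (4.59), Pnpla3 (3.80), Nat8f5 (2.70), Fasn (1.97), Nat8 (1.78), Mr1 (1.73), Pklr (1.65), 1810008I18Rik (1.53), Insig1 (1.51), Gbp2 (1.51), Acly (1.49), Orm1 (1.47), Cfap54 (1.42), Ifit3 (1.39), Cmpk2 (1.23), Acaca (0.99), Pgd (0.98), Ern1 (0.94), C4b (0.83) and Pex11g (0.67). They include members of the lipogenesis list such as Fasn, Acly and Acaca and the interferon-stimulated Cmpk2, Ifit3 and Gbp2. It was negative for Cyp4a14 (-4.06), Cyp4a10 (-2.61), Ehhadh (-2.24), Acot2 (-2.09), Sds (-1.96), Tmtc2 (-1.73), Pck1 (-1.60), Retsat (-1.53), Alkbh2 (-1.30), Mat1a (-1.13), Hsd17b11 (-1.05), Gtf2ird2 (-0.95), Nrbp2 (-0.90), Tmem243 (-0.89), Dcaf6 (-0.78), Hadhb (-0.70) and Slc27a2 (-0.65).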

How the results depend on the processing

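With an adjusted p under 0.01 in place of 0.05, 331 genes were called for fasting on HFD, 1859 for fasting on CD and 31 for the interaction, and with a log2 fold change of at least 1 added, 306, 878 and 166. DESeq2 called 1985 genes on HFD, 1331 of them among the 1335 (99.7%), and 1020 interactions in place of 390. The other tools, scalings and filters gave 948 (without a filter on low counts) to 1367 (upper quartile scaling) calls on HFD. Fitting only the groups compared gave 1014, with fewer libraries behind the estimate of spread. It ended the HFD calls of Slc25a1, Pnpla3, Mlxipl, Bdh1, Slc27a2, Plin2, Acot2, Retsat, Cidec, Mgll, Ldha, Khk, Kynu, Mat1a, Apcs, Itih4, Itih3, Ern1, Slco1a4, Abcc3, Hsd3b5, Mcm2, Mcm3, Mcm4, Gstm6, Cfd, Dcaf6, Alkbh2, Hsd17b11, Inhbc, Nr1i3, Cyp3a25, Slc51b, Selenbp2 and Elovl3, and the CD calls of Themis, Saa1, Pck1, Taf15, Pex11g and Ppargc1a. Leaving out 1 library gave 505 to 1533 calls on HFD, 2857 to 3958 on CD and 147 to 461 interactions, and 445 of the HFD calls (33.3%) were made in every such fit. Of 129 genes called on HFD and followed one by one, not all of them described here, 73 were called in all 16 of these fits. Under all other settings 91 were called, and none of the 129 changed direction after a call. The replicate numbers were not taken as pairs, since same-numbered fed and fasted HFD libraries deviated together with correlations of 0.110, 0.0583, 0.125 and 0.662 and only numbers 3 and 4 correlated best with their own. With a replicate block 1440 genes were called on HFD, 3948 on CD and 359 for the interaction, and calls were lost on HFD for Mlxipl, Elovl6, Tat, Ern1, Mcm2, Mcm3, Mcm4 and Nr1i3, on CD for Themis and Saa1 and for the interaction of Mat1a, Orm1, Ern1 and Cmpk2. The causes were not tested. Lower levels than a count of 3, at most 0.0686 CPM, could not be measured at this depth.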

Other observations

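The gene groups described next were chosen after their values were seen, so their counts are descriptions. Interferon-stimulated genes, which restrict viruses and present antigen, were higher in the fasted HFD livers at 21 of 55 tested members and lower at 1, Bst2 (median 0.45), beside 4.78% higher and 4.07% lower of all genes. On CD 4 rose and 5 fell (median -0.083), beside 13.7% and 11.5% of all genes. The interaction was called for 6, all with the HFD change above that on CD, beside 1.23% of all genes in that direction. Ifit1, which binds foreign RNA, was 2.96, 5.63, 3.68 and 5.24 CPM in HFD fed 1 to 4 and 8.81, 18.02, 11.6 and 14.6 CPM in HFD fast 1 to 4 (1.60 ± 0.30, adjusted p = 0.00596). Ifit3, which stabilises it, was 5.44, 7.29, 5.44 and 8.75 CPM in the fed and 9.70, 18.2, 13.0 and 18.2 CPM in the fasted livers (1.13 ± 0.23, adjusted p = 0.00896), with a CD change of -0.26 ± 0.23 and an interaction of 1.39 ± 0.33 (adjusted p = 0.0361). Every fasted library was above every fed library for both. Cmpk2, a mitochondrial nucleotide kinase beside Rsad2 in the genome, was 2.58, 3.26, 2.95 and 4.05 CPM in the fed and 4.90, 7.34, 6.86 and 9.57 CPM in the fasted livers (1.16 ± 0.22, adjusted p = 0.00651), and Gbp2, a guanylate-binding protein, was 3.73, 3.39, 3.57 and 5.97 CPM in the fed and 6.23, 8.32, 7.74 and 12.5 CPM in the fasted livers (1.06 ± 0.25, adjusted p = 0.0195). The differences from CD were 1.23 ± 0.31 (adjusted p = 0.0478) and 1.51 ± 0.36 (adjusted p = 0.0395). Neither overlapped between the groups. The number of members that rose was 9 without HFD fed 1, 10 without HFD fed 3, 13 without HFD fast 3 and 26 without HFD fed 4, and it was 28 with DESeq2. Gbp2 lost its call without HFD fast 4 or HFD fed 1, 2 or 3 (adjusted p up to 0.0662). Ifit3 lost its interaction call in 11 of 16 fits without 1 library (adjusted p up to 0.0767 without HFD fed 3), and Cmpk2 in 13 of 16 fits without 1 library (adjusted p up to 0.0956 without HFD fed 3) and with limma-voom and with upper quartile scaling. Gbp2 lost its interaction call in 12 of 16 fits without 1 library (adjusted p up to 0.0810 without HFD fed 3) and with limma-voom. The T and NK cell markers were 10.6 to 21.1 CPM in the fed and 16.3 to 31.2 CPM in the fasted livers, and their part in these changes was not tested.

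The NAT8 family, acetyltransferases of the endoplasmic reticulum and of cysteine conjugates, had 5 of 7 tested members higher and 1 lower on HFD, beside 4.78% and 4.07% of all genes, with 3 higher without HFD fast 1 or HFD fed 1. On CD 2 rose and 2 fell, beside 13.7% and 11.5% of all genes. The medians of the family were 0.72 on HFD and -0.45 on CD. Nat8f5 was 1.88, 2.01, 2.90 and 1.52 CPM in the fed and 8.37, 9.90, 9.50 and 4.63 CPM in the fasted livers (1.96 ± 0.32, adjusted p = 0.00242), without overlap, and differed from its CD change by 2.70 ± 0.44 (adjusted p = 0.00856). Nat8f2 rose by 0.72 ± 0.14 (adjusted p = 0.00628) and Nat8f1 fell by 0.78 ± 0.18 on the log2 scale (adjusted p = 0.0157). Nat8f1 lost its call without HFD fast 3 or HFD fed 1 (adjusted p up to 0.0612). Of 23 glutathione S-transferases tested, 1 rose, Gstt2, and 4 fell, Gstm1, Gstm6, Gstm7 and Gstp1, while 2 rose and 12 fell on CD, beside 4.78% higher and 4.07% lower of all genes on HFD and 13.7% and 11.5% on CD. When 1 library was left out, 0 to 1 rose and 3 to 5 fell on HFD. Of 23 genes of replication licensing 3 rose (Mcm2, Mcm3 and Mcm4), beside 4.78% of all genes. The number was 0 with limma-voom and without any 1 of CD fast 4, CD fed 2, 3 or 4, HFD fast 1, 3 or 4 or the 4 HFD fed libraries, and 5 without HFD fast 2 and with DESeq2.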
